A study of Mus musculus with 4 samples.

Results

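The genes described here encode 3 families of membrane carriers for sugars, monocarboxylates and related small molecules. They were taken by symbol, as every gene of the GRCm38 annotation named Slc2a, Slc5a or Slc16a followed by a number. The rule found 37 of the 47729 genes counted, 12 in the Slc2a family, 11 in the Slc5a family and 14 in the Slc16a family. Slc5a4a and Slc5a4b, which end in a letter, fall outside it. RNA was sequenced from whole lung of mice of strain BL/6 with the genotype that the labels write as Control (Rosa), which all libraries share. A group of 2 libraries came from normoxic mice and a group of 2 from mice labelled Sugen-Hypoxic. Sugen is an inhibitor of VEGF receptors that is given with hypoxia to produce pulmonary hypertension in rodents. Each library is read from its label as a pool, of 3 females (normoxia replicate 1), of 1 female and 2 males (normoxia replicate 2) and of 2 males (each Sugen-hypoxia replicate), so treatment and pool sex cannot be told apart. Dose, duration and age are not stated in the labels, and no arm had hypoxia or Sugen alone. The series is named for KCNK3 mutations, but no mutant library was among the 4 analysed here. Gene counts summed to 57.3 to 67.1 M (1e6 reads) per library. The labels name lung as the source while the extraction text names kidneys: type 2 alveolar markers summed to 18814 to 20169 CPM (counts per 1e6 gene counts) in the 4 libraries, and kidney markers to at most 1.04 CPM.

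The 3 families move their cargo in different ways. Slc2a genes encode the GLUT proteins, which let glucose, fructose or urate pass down their gradient. Slc5a genes encode carriers that use the sodium gradient to bring in glucose, inositol, lactate, iodide, vitamins or choline, and Slc16a genes encode the MCT proteins, of which some carry lactate and pyruvate together with a proton and others carry amino acids, carnitine or creatine. Slc2a1 and Slc16a3 are textbook targets of HIF, the hypoxia-inducible factor, and lactate carriers of the MCT type need a partner protein, basigin or embigin, to reach the cell surface.

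The upstream windows of 4 members that passed the test below are shown, those of Slc2a1 and Slc5a1, which rose, and of Slc16a9 and Slc2a12, which fell. These members were picked by their calls, so the display cannot link letters to direction. The windows come from RefSeq (build GRCm38.p6), run 5′ to 3′ on the plus strand, and end before the gene's start in both RefSeq and GENCODE. Capitals mark ACGTG or GCGTG on either strand, the cores that HIF is known to bind, and GCGTG is also the core read by the aryl hydrocarbon receptor. The windows are chr4:119108495-119108710 for Slc2a1, chr5:33103969-33104218 for Slc5a1, chr10:70245026-70245099 for Slc16a9 and chr10:22644761-22645010 for Slc2a12.
Slc2a1: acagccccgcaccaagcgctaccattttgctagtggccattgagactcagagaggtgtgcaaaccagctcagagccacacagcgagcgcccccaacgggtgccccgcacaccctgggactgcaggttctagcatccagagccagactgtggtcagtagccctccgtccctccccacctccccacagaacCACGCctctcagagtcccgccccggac
Slc5a1: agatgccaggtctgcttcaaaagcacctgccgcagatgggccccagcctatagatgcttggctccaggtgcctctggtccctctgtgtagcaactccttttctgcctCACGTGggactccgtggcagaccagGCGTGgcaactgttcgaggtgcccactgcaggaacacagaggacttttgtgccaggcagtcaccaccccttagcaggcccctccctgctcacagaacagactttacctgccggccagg
Slc16a9: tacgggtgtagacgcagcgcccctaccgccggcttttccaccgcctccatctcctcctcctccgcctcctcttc
Slc2a12: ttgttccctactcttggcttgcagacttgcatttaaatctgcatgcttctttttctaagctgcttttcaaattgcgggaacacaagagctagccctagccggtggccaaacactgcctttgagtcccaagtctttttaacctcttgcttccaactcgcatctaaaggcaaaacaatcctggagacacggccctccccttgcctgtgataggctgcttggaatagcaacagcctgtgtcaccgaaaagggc
Slc5a1 held 1 CACGTG, which reads as ACGTG on both strands, and 1 GCGTG, and Slc2a1 held 1 GCGTG on the opposite strand. The shown stretches of Slc16a9 and Slc2a12 held neither. Over the full 250 bases before the RefSeq start, Slc2a1 also had 1 ACGTG and Slc16a9 1 GCGTG, in the part not shown. RefSeq gave 29 such windows for 27 members, and Slc5a12 and Slc2a3 were not among them. ACGTG stood in 5 of the 29, or 17.2%, against 16.6% of all 32851 windows, and GCGTG in 11, or 37.9%, against 28.2%. Slc16a11, which fell and whose window is not shown, had 4 GCGTG matches. Slc16a3 and Slc16a1, which did not pass the test, each held ACGTG, with 2 matches counted over both strands. In Slc16a1 these were the 2 readings of 1 CACGTG, as in Slc5a1, whereas Slc16a3 held no CACGTG. A match describes letters only, and its absence from a window says nothing of the factor.

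Per kilobase of exon, the carrier with the highest level in normoxic lung was Slc16a9, which carries carnitine, at 38.0 ± 3.79 CPM per kb (SD, n = 2). Of the other carriers named here, Slc16a11 followed at 13.7 ± 0.204, the lactate carrier Slc16a1 (MCT1) at 10.5 ± 0.406 and the glucose carrier Slc2a1 (GLUT1) at 8.78 ± 0.687 CPM per kb. Slc2a8, Slc16a3 and Slc2a12 came next at 5.46, 4.66 and 4.21 CPM per kb. In each of these 7 places both normoxic libraries lay above both libraries of the next gene, whereas the neighbours Slc2a3 and Slc16a10, at 3.55 and 3.16 CPM per kb, were not separated by their spread. In the treated libraries Slc16a9 still led at 16.03 ± 0.648, and of those named here Slc2a1 came next at 11.7 ± 0.0707 and overlapped Slc16a1 at 10.8 ± 1.29 CPM per kb. A mean of at least 1 CPM was reached by 24 of the 37 members. The 13 below it were Slc2a2, Slc2a5, Slc2a7, Slc5a2, Slc5a5, Slc5a7, Slc5a8, Slc5a9, Slc5a10, Slc5a11, Slc16a5, Slc16a8 and Slc16a14. Slc2a7 and Slc5a7 had no read in any library, which allows up to 0.0447 to 0.0523 CPM per library.

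**Figure D1:**
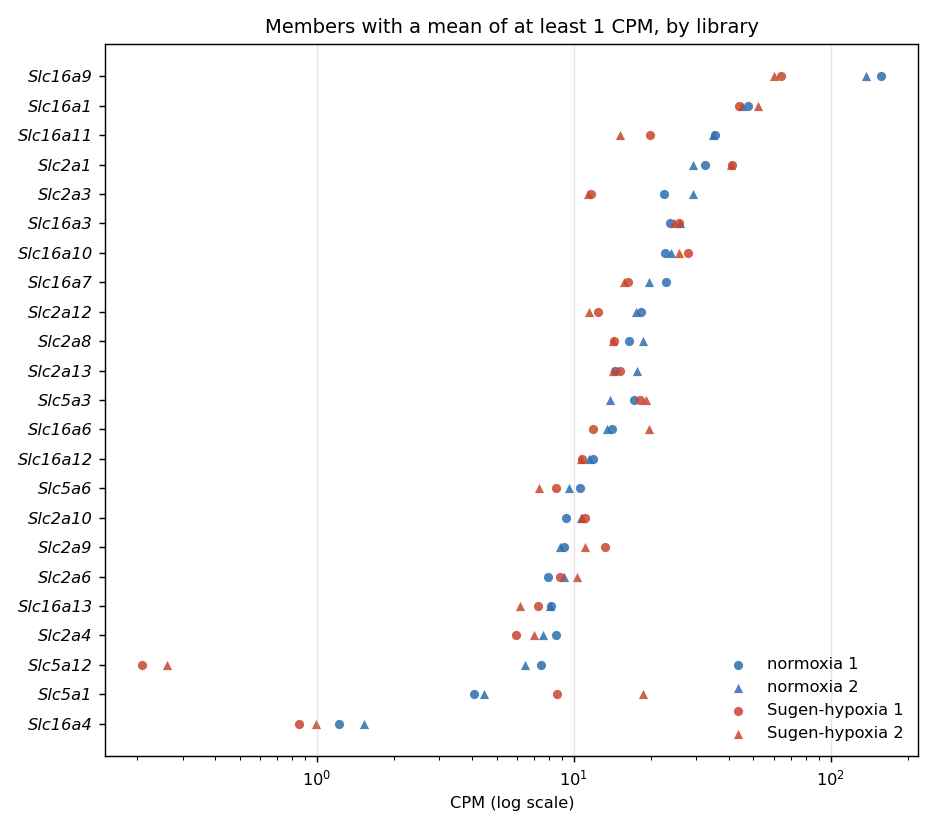
CPM of 23 of the 24 members with a mean of at least 1 CPM, on a log axis, with 1 point per library (blue, normoxia; red, Sugen-hypoxia; circle, replicate 1; triangle, replicate 2). Slc5a12 shows the treated libraries far to the left of the normoxic ones. Slc16a9 shows them to the left by much less, and Slc5a1 shows them to the right.

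Of the 37 members 28 passed the expression filter, and 7 of these 28 differed between Sugen-hypoxia and normoxia, 2 higher and 5 lower (edgeR's quasi-likelihood test, Benjamini-Hochberg adjusted p under 0.05 over all 18783 genes tested). Over all tested genes 11.5% were called, 5.51% as higher and 6.01% as lower, against 25% of the tested members. The filter depends on the level within a group, so the 28 are not all members, and the 9 others reached at most 0.367 CPM in any library. When only genes averaging at least 1 CPM were kept, 7 of 24 members were called, beside 15.1% of all genes. Slc2a1 and Slc5a1 rose, and Slc2a3, Slc2a12, Slc5a12, Slc16a9 and Slc16a11 fell. The median log2 fold change of the 28 was -0.02, beside -0.0039 for all genes tested. The libraries of the groups did not overlap for 21 of the 28, or 75%, beside 61.3% of all tested genes.

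**Figure D2:**
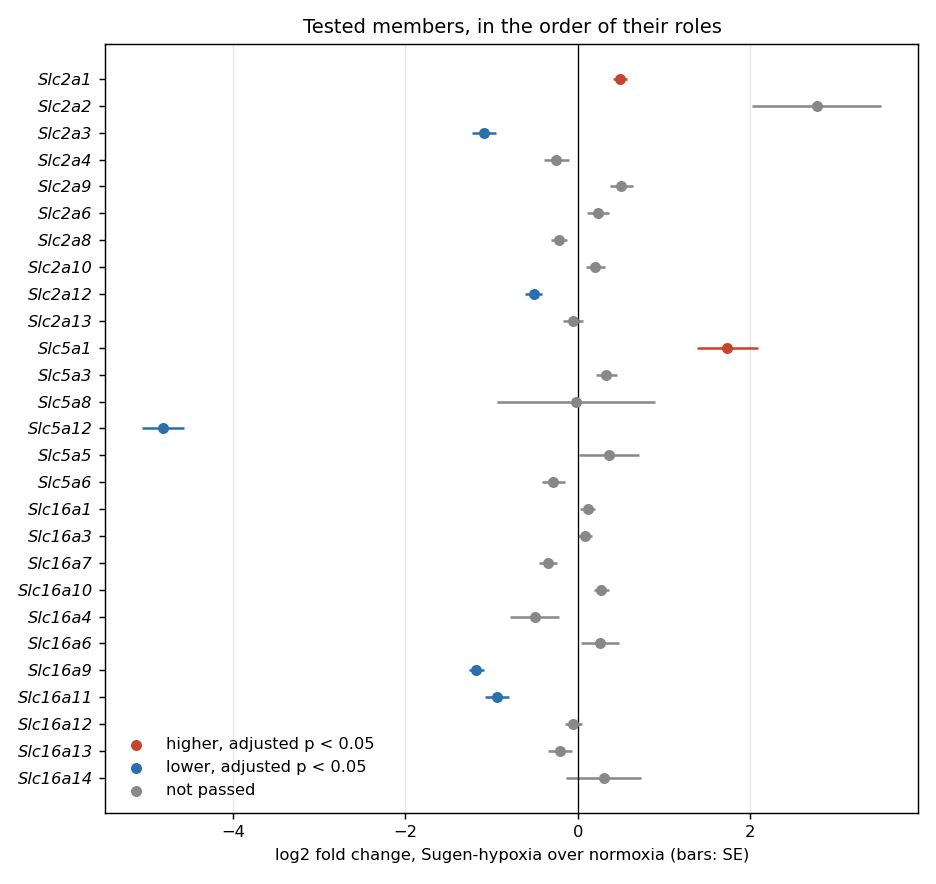
Log2 fold change (Sugen-hypoxia over normoxia) of 27 of the 28 tested members in the order of their roles, with SE bars. Red and blue points passed the test as higher and lower, and Slc5a12 at -4.81 is far to the left of the rest.

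Among the class 1 glucose carriers Slc2a1 and Slc2a3 moved in opposite directions. Slc2a1 (ENSMUSG00000028645, GRCm38 chromosome 4, 119108711 to 119137983, plus strand), the main glucose carrier of many cells, was at 32.5 and 29.1 CPM in normoxia replicates 1 and 2 and at 41.4 and 41.0 CPM in the Sugen-hypoxia replicates. The treated libraries lay close together and above both normoxic ones. Mean CPM rose from 30.8 ± 2.41 to 41.2 ± 0.248 (SD, n = 2 each). The rise fitted by edgeR, which scales the libraries otherwise than CPM, was 1.402-fold (adjusted p = 0.021). The fitted log2 fold change was 0.49 ± 0.08, where ± gives the SE. Erythroid markers summed to 169 and 186 CPM in normoxia and to 386 and 157 CPM after treatment (0 of 6 called, and 0 at an unadjusted p under 0.05, in edgeR, DESeq2 and limma-voom). Endothelial markers summed to 3275 and 3353 against 4411 and 3776 CPM, with 2 of 5 higher. Kdr on that list went the other way, at 576 and 574 against 516 and 445 CPM, and did not pass. The part of erythroid or endothelial cells in the rise of Slc2a1 was not tested.

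Slc2a3 (ENSMUSG00000003153, chromosome 6, 122727809 to 122801640, minus strand), the high-affinity GLUT3 of neurons and many white blood cells, was at 22.4 and 29.0 CPM in normoxia and at 11.7 and 11.3 CPM after treatment. Both treated libraries were at about the same level, below both normoxic ones. Slc2a3 went from a mean of 25.7 ± 4.68 to 11.5 ± 0.27 CPM. Its fitted fall was 2.13-fold, a log2 fold change of -1.09 ± 0.13 with adjusted p = 0.0109. Its nearest tested protein-coding neighbours Nanog and Foxj2 were at -0.06 and -0.0044 on the log2 scale and did not pass. Markers of white blood cells fell in the same libraries, 7 of 8 for T and NK cells, 4 of 4 for B cells and 3 of 5 for neutrophils. On the neutrophil list Ly6g was lower without passing. Mmp8 went the other way, at 15.8 and 18.9 against 21.9 and 36.7 CPM, and did not pass either. Summed CPM of the T and NK list went from 70.0 and 58.5 to 21.8 and 25.3, that of the B cell list from 194 and 181 to 63.3 and 77.8, and that of the neutrophil list from 292 and 372 to 172 and 151. The normoxic library with more Slc2a3 also had the higher neutrophil sum and the lower sums of the other 2 lists. Platelet markers were higher in that library too. They summed to 22.4 and 48.4 CPM in normoxia and to 26.7 and 37.2 CPM after treatment (0 of 4 called). Monocyte and macrophage markers summed to 5457 and 5212 against 6180 and 6701 CPM, with 1 of 5 higher and 0 lower. The part of these cells in the fall of Slc2a3 was not tested, and fewer cells of a type and less RNA per cell cannot be told apart in whole lung.

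The other class 1 members did not pass. Slc2a4, the insulin-responsive GLUT4 of muscle and fat, was at 8.53 and 7.59 CPM in normoxia and 5.93 and 7.01 CPM after treatment, a log2 fold change of -0.25 ± 0.15. Cardiac muscle markers, which whole lung holds through the pulmonary veins, summed to 598 and 563 against 227 and 384 CPM (1 of 6 lower), and fat markers to 16.7 and 14.5 against 15.0 and 15.2 CPM (0 of 4 called, or under an unadjusted p of 0.05, in any of the 3 tools). Smooth muscle markers went the other way and summed to 682 and 784 against 933 and 1031 CPM (2 of 4 higher). Both Slc2a4 and the cardiac sum were lowest in treated replicate 1, and the part of any of these cells was not tested. Slc2a2, the GLUT2 of liver and pancreatic islets, had 8 reads in each normoxic library and 76 and 24 reads in the treated ones, or 0.119, 0.137, 1.33 and 0.367 CPM, and was singled out after its values were seen. Its log2 fold change of 2.77 ± 0.75 did not pass (adjusted p = 0.071), and it passed the filter through the treated group.

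In class 2, Slc2a9, a urate carrier, stood at 9.16 and 8.81 CPM in normoxia and at 13.3 and 11.03 CPM after treatment. The groups did not overlap, but the log2 fold change of 0.50 ± 0.13 did not pass (adjusted p = 0.0662). Slc2a5, the fructose carrier, had 2 to 15 reads per library and was not tested.

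Of the 5 class 3 carriers, which lie largely inside the cell, only Slc2a12 passed. Slc2a12 (ENSMUSG00000037490, chromosome 10, 22645011 to 22704285, plus strand), the GLUT12 glucose carrier, was at 18.3 and 17.4 CPM in normoxia and at 12.4 and 11.4 CPM after treatment. The groups were well apart. Mean CPM fell from 17.8 ± 0.631 to 11.9 ± 0.687. The fitted fall was 1.43-fold, a log2 fold change of -0.51 ± 0.10 with adjusted p = 0.0298. Slc2a12 overlaps Tbpl1 on the opposite strand. Slc2a8, the GLUT8 of endosomes and lysosomes, was at 16.4 and 18.6 CPM in normoxia and 14.3 CPM in both treated libraries, without overlap, a log2 fold change of -0.22 ± 0.09. Slc2a10, the GLUT10 whose loss causes arterial tortuosity syndrome, was at 9.32 and 10.6 against 11.04 and 10.8 CPM, a log2 fold change of 0.20 ± 0.11. The groups overlapped for the other two. Slc2a6 was at 7.91 and 9.15 against 8.83 and 10.3 CPM, a log2 fold change of 0.23 ± 0.13, and Slc2a13, the proton-coupled inositol carrier HMIT, was at 14.4 and 17.6 against 15.1 and 14.2 CPM, a log2 fold change of -0.06 ± 0.12.

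The Slc2a family as a whole held 32.9 and 34.1 CPM per kb in normoxia and 33.1 and 32.6 CPM per kb after treatment, while its makeup shifted. Slc2a1 made up 28.2 and 24.4% of that sum in normoxia and 35.7 and 35.9% after treatment. The share of Slc2a3 went from 9.40 and 11.8% to 4.89 and 4.796%, and that of Slc2a12 from 13.1 and 12.1% to 8.85 and 8.28%. In each of these 3 cases the groups did not overlap. Shares within a sum depend on one another and were not tested.

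**Figure D3:**
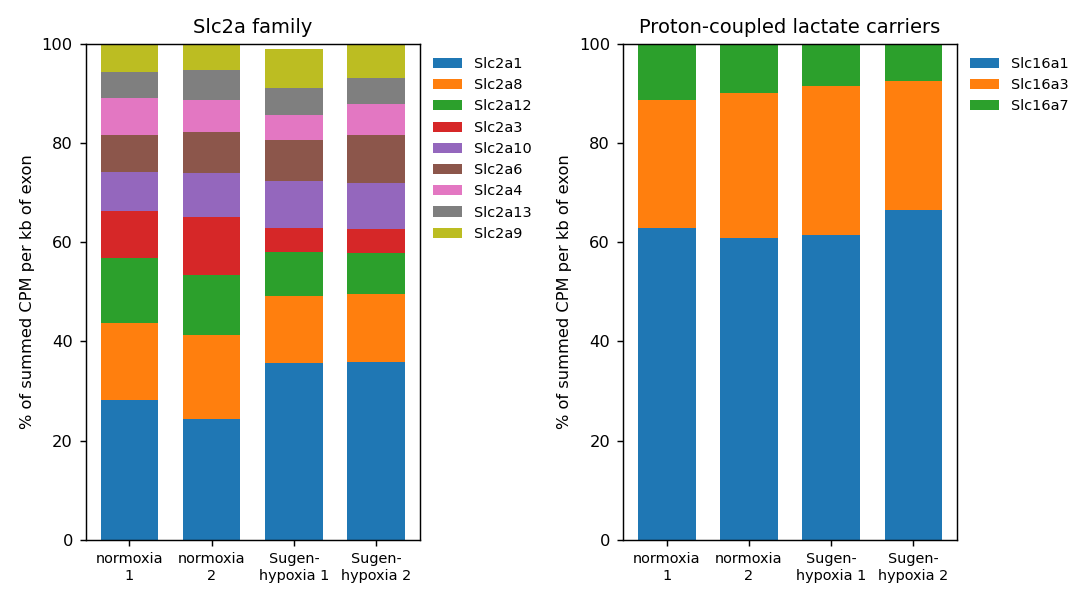
Share of each member in the summed CPM per kb of exon for the Slc2a family (left) and the proton-coupled lactate carriers (right), 1 bar per library. Members that stay under 1% in every library are not drawn. The Slc2a1 segment is larger, and the Slc2a3 segment smaller, in both Sugen-hypoxia bars.

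Of the sodium-coupled sugar carriers Slc5a1 alone was abundant enough to be tested. Slc5a1 (ENSMUSG00000011034, chromosome 5, 33104219 to 33162870, plus strand), the SGLT1 that takes up glucose in gut and in other epithelia, was at 4.08 and 4.47 CPM in normoxia and at 8.64 and 18.5 CPM after treatment. The treated libraries were both above the normoxic ones but lay far apart from each other. Mean CPM rose from 4.27 ± 0.272 to 13.6 ± 7.01. The fitted rise was 3.33-fold, a log2 fold change of 1.74 ± 0.35 with adjusted p = 0.0354. It was 1.10 without treated replicate 2 and 2.17 without treated replicate 1, and with limma-voom it did not pass (adjusted p = 0.0686). Chil3, a secreted protein gene on the alveolar macrophage list, also ran highest in treated replicate 2, at 684 and 601 CPM in normoxia and 1545 and 4337 CPM after treatment. The 4 other markers of that list summed to 269 and 248 CPM in normoxia and to 170 and 236 CPM after treatment, with 0 higher and 1 lower (Car4). Car4 was the largest of them in normoxia and went from 157 and 152 to 70.6 and 90.9 CPM. The lower sum thus rests on Car4 and does not describe the other markers of the list. Ear2 was at 62.7 and 57.4 against 72.2 and 94.8 CPM, and Marco at 28.6 and 18.7 against 8.91 and 29.9 CPM. Both were highest in treated replicate 2, whereas Siglecf stayed at 18.7 to 20.7 CPM in all libraries. Type 2 alveolar markers summed to 20169 and 19888 against 19224 and 18814 CPM with 0 of 5 called (0 at an unadjusted p under 0.05; 1 called by DESeq2 and 0 by limma-voom), and club cell markers to 16250 and 15992 against 11854 and 9768 CPM with 2 of 3 lower. Their part in the rise was not tested. The adjacent gene Ywhah, 76.3 kb away, rose by 0.37 on the log2 scale (adjusted p = 0.0173), and Spon2, 35.3 kb away on the other side, was at 0.74 and did not pass.

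Slc5a2, Slc5a9 and Slc5a10 had at most 24 reads in any library and were not tested. Slc5a9 stood at 4 reads in 3 libraries and at 24 in treated replicate 2, the library in which Slc5a1 was highest, and is named after its values were seen. Slc5a11, an inositol carrier, had 6 to 16 reads and was not tested either.

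Slc5a12 showed the largest fitted fold change of the 28 members tested. Slc5a12 (ENSMUSG00000041644, chromosome 2, 110597298 to 110647779, plus strand), the sodium-coupled lactate carrier SMCT2 known from kidney and gut, was at 7.48 and 6.47 CPM in normoxia and at 0.209 and 0.26 CPM after treatment, or 502 and 377 reads against 12 and 17. All 4 exact Poisson intervals (95%, for counting error only) kept the groups apart, the lowest normoxic bound being 5.84 and the highest treated bound 0.417 CPM. Slc5a12 went from a mean of 6.98 ± 0.709 to 0.235 ± 0.0359 CPM. Its fitted fall was 28.0-fold, a log2 fold change of -4.81 ± 0.24 with adjusted p = 0.00239. Its relative Slc5a8 (SMCT1) had 2 to 19 reads per library, and its log2 fold change of -0.02 ± 0.91 is too imprecise to compare. Since the extraction text names kidneys, kidney markers were read beside it. Slc22a6 and Kap were at 0 in all 4 libraries and Umod at 0 in 3, and the 6 markers together summed to 1.04 and 0.79 CPM in normoxia and 0.227 and 0.474 CPM after treatment. Of the 2 that could be tested, Aqp2 and Slc22a12, 0 were called by edgeR, DESeq2 or limma-voom, but both were lower at an unadjusted p under 0.05 in edgeR. Slc22a12, a urate carrier of the proximal tubule, was at 0.789 and 0.515 CPM in normoxia and at 0.192 and 0.26 CPM after treatment. It thus moved with Slc5a12, at a lower level in normoxia, and its part in the fall was not tested. The nearest tested protein-coding neighbours of Slc5a12 were also lower after treatment in both libraries. Fibin, 234 kb away, fell from 81.4 and 71.7 to 21.0 and 17.0 CPM, a log2 fold change of -1.94 ± 0.13 with adjusted p = 0.00406. Ano3, 7.42 kb away on the other side, was at 0.328 and 0.344 against 0.105 and 0.0918 CPM and did not pass (adjusted p = 0.0907).

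The remaining sodium-coupled members did not pass. Slc5a3, the myo-inositol carrier, was at 17.1 and 13.8 CPM in normoxia and 18.1 and 19.1 CPM after treatment, a log2 fold change of 0.33 ± 0.13. It overlaps Mrps6 on the same strand, so its reads are uncertain. Slc5a6, which takes up biotin and pantothenate, was at 10.6 and 9.55 against 8.50 and 7.30 CPM, a log2 fold change of -0.28 ± 0.14. Slc5a5, the iodide carrier of the thyroid, was at 0.498 to 0.733 CPM in the 4 libraries, with the thyroid marker Tg at 1.55 to 3.98 CPM.

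None of the 3 tested proton-coupled lactate carriers passed. Slc16a1 was at 47.7 and 45.2 CPM in normoxia and at 43.8 and 51.9 CPM after treatment, and Slc16a3, the MCT4 that exports lactate from glycolytic cells, was at 23.7 and 25.9 against 25.6 and 24.5 CPM. For both genes the groups overlapped. The log2 fold change of Slc16a3 was 0.09, with a 95% interval from -0.11 to 0.29, and that of Slc16a1 0.11, from -0.11 to 0.34, so the intervals hold neither a doubling nor a halving. Slc16a7, the high-affinity MCT2, was at 22.9 and 19.6 against 16.2 and 15.7 CPM, a log2 fold change of -0.35 ± 0.11 that did not pass (adjusted p = 0.0938). Its groups did not overlap, and it was called lower with no expression filter (adjusted p = 0.0467) and without treated replicate 1 (adjusted p = 0.0265). Slc16a8, the MCT3 of retinal pigment epithelium and choroid plexus, had 2 reads in 1 library and none elsewhere. Together the 4 held 17.2 and 16.7 CPM per kb in normoxia and 16.1 and 17.7 CPM per kb after treatment.

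Slc16a10, the aromatic amino acid carrier TAT1, was at 22.7 and 23.9 against 27.9 and 25.7 CPM, with a log2 fold change of 0.27 ± 0.08 that did not pass (adjusted p = 0.0909).

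Both members of the Slc16a family that passed the test fell. Slc16a9 (ENSMUSG00000037762, chromosome 10, 70245100 to 70285968, plus strand) was at 157 and 137 CPM in normoxia and at 63.8 and 60.2 CPM after treatment. The treated pair lay close together and far below both normoxic libraries. Slc16a9 went from a mean of 147 ± 14.7 to 62.0 ± 2.51 CPM. Its fitted fall was 2.26-fold, a log2 fold change of -1.18 ± 0.09 with adjusted p = 0.00468. Its tested neighbours Mrln and Fam13c were at 0.08 and -0.04 without passing. The Slc16a family summed to 100.5 and 94.3 CPM per kb in normoxia and to 67.7 and 67.2 CPM per kb after treatment, and Slc16a9 made up 40.5 and 37.5% of the first sums and 24.3 and 23.2% of the second.

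Slc16a11 (ENSMUSG00000040938, chromosome 11, 70212752 to 70216417, plus strand), an MCT gene linked to lipid metabolism, was at 35.5 and 34.7 CPM in normoxia and at 19.7 and 15.1 CPM after treatment. The groups were far apart. Mean CPM fell from 35.1 ± 0.52 to 17.4 ± 3.24. The fitted fall was 1.92-fold, a log2 fold change of -0.94 ± 0.14 with adjusted p = 0.0172. Slc16a13 lies on the opposite strand and ends 372 bases from the end of Slc16a11. It was at 8.13 and 8.06 against 7.24 and 6.17 CPM, a log2 fold change of -0.20 ± 0.14 that did not pass, and the difference between the neighbours was not tested. Ciliated cell markers, 4 of 5 lower, summed to 510 and 509 against 451 and 446 CPM. Their median log2 fold change was -0.66, and the 1 positive marker, at 0.20, did not pass. Type 1 alveolar markers, 1 of 4 lower, summed to 2961 and 3041 against 2499 and 2262 CPM. The part of these cells in the falls of Slc16a9 and Slc16a11 was not tested.

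Slc16a6, a carrier of ketone bodies, was at 14.1 and 13.5 CPM in normoxia and at 11.9 and 19.6 CPM after treatment, so the treated libraries lay on either side of the normoxic ones. Slc16a12, a creatine carrier, was at 11.8 and 11.5 against 10.8 and 10.7 CPM. Slc16a4, of little known function, was at 1.22 and 1.53 against 0.855 and 0.995 CPM. None of these 3 passed, nor did Slc16a14 at 0.292 to 0.49 CPM, and Slc16a5, with 2 to 12 reads per library, was not tested.

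Genes that work with the carriers were read from a list of 66, of which 62 were tested. Of these 9 rose and 5 fell, a called share of 22.6% beside 11.5% over all genes, and the median log2 fold change was 0.02. When only genes averaging at least 1 CPM were kept, 15 of 58 list genes were called, beside 15.1% of all genes. Bsg, the gene of basigin, the partner of MCT1 and MCT4, rose from 392 and 409 to 468 and 496 CPM, a log2 fold change of 0.33 ± 0.07 with adjusted p = 0.034. Emb, the gene of embigin, was at 0.22 and did not pass, and Txnip, which restrains glucose uptake through GLUT1, was at 0.02. Hexokinase Hk1, which traps glucose that has entered, rose by 0.43 while Hk2 was at -0.18 and did not pass. Ldha, whose enzyme favours making lactate, rose from 190 and 193 to 289 and 305 CPM, a log2 fold change of 0.70 ± 0.06 with adjusted p = 0.0053. Ldhb, whose enzyme favours using lactate, fell from 107 and 106 to 71.2 and 68.8 CPM, a change of -0.54 ± 0.06 with adjusted p = 0.0079. Of 20 tested glycolysis genes 5 rose (Pfkl, Aldoa, Pkm, Gapdh and Tpi1, by 0.34 to 0.85) and 2 fell (Eno3 and Pfkfb3). Pdk2, Sord and Atp1b2 were the other calls, the first 2 as lower and the sodium pump subunit Atp1b2 as higher by 0.84. Without normoxia replicate 1 or 2, or with the sex of the pools in the model, edgeR called 0 genes of the list (16, 16 and 10 at an unadjusted p under 0.05), and without treated replicate 1 or 2 it called 26 and 25.

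**Figure D4:**
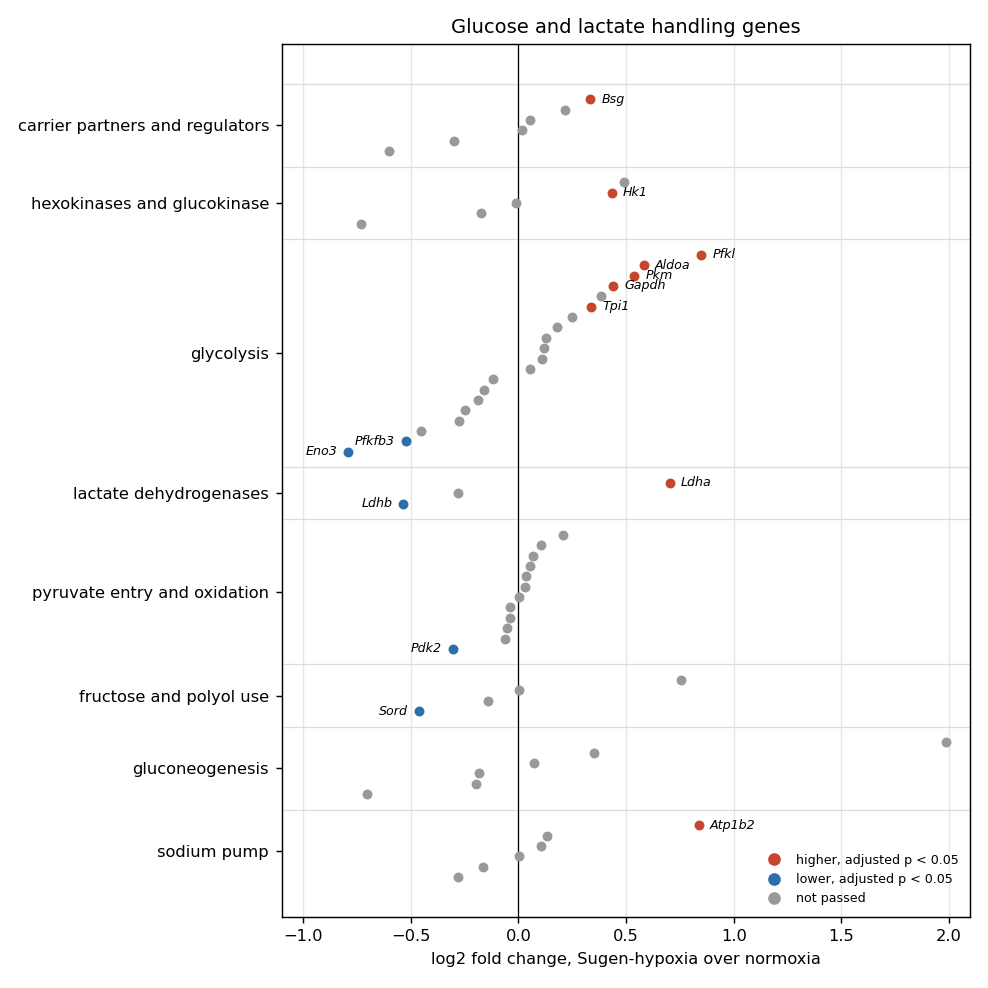
Log2 fold change (Sugen-hypoxia over normoxia) of the 62 tested genes of glucose and lactate handling, 1 point per gene, sorted within groups. Named points passed the test. Ldha lies at 0.70 and Ldhb at -0.54.

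The calls of the 7 members depended on which library was left out. Without normoxia replicate 1 the call was kept by Slc5a12 alone (1 of 7) and without normoxia replicate 2 by Slc5a12 and Slc16a9 (2 of 7), when 0.128% and 0.577% of all tested genes were called. Without treated replicate 1 or 2 all 7 were kept, with 25.7% and 24.4% of all genes called. Slc16a1, Slc16a6 and Slc16a7 were called as well without treated replicate 1, and Slc2a2, Slc2a9 and Slc16a10 without treated replicate 2. The direction of the 7 was the same in each case. When the share of males in each pool was added to the edgeR model (1 degree of freedom then remains), 0 of the 28 members passed, 6 had an unadjusted p under 0.05 and 11 of 18783 genes passed, and the log2 fold changes of the 7 ran from 0.67 (Slc2a1) and 1.62 (Slc5a1) to -4.58 (Slc5a12). Slc5a12 had adjusted p = 0.0991 in that model. Treatment and pool sex cannot be told apart for any of the 7.

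**Figure D5:**
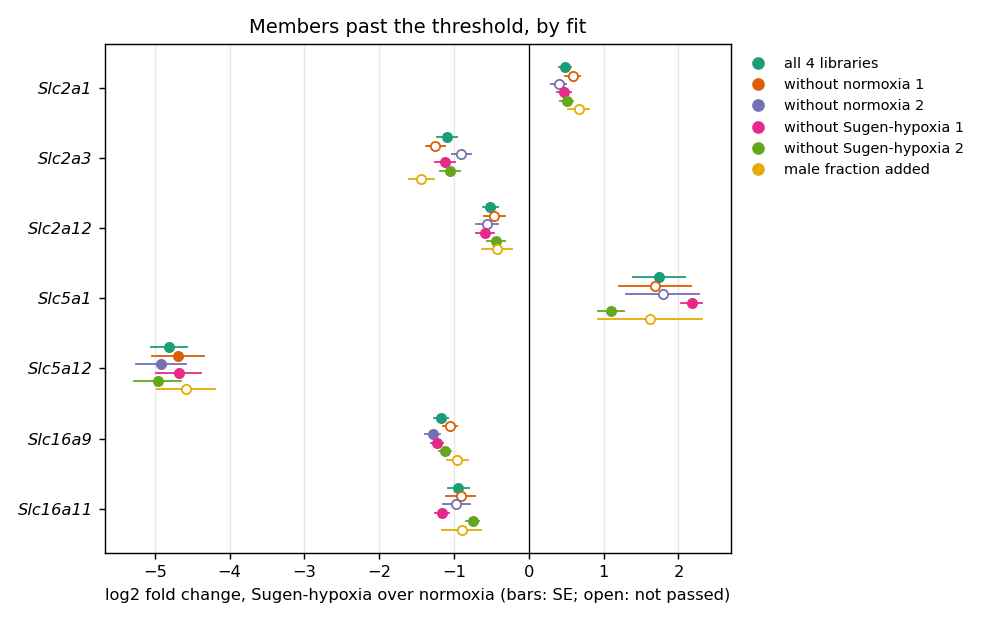
Log2 fold change with SE bars of the 7 members that passed, with all 4 libraries, with each library left out, and with the male fraction of the pool added. Filled points passed the adjusted threshold of 0.05 in that model and open points did not, and every point of a gene lies on the same side of 0.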

How the data were processed

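RNA from 4 lung pools was analysed, 2 per group, with 6 normoxic and 4 treated animals. Per the submitters' processing notes the authors used STAR 2.5.1b, HTSeq and GRCm38.p4; the annotation they counted on was not stated. The authors deposited raw counts per gene for each library. The antisense column was used, as it held 20.9 to 24.9 times the reads of the sense column. Summary rows stayed out (unmapped 6.45 to 7.55%, multimapping 4.5 to 4.54%, no feature 7.73 to 9.98%, ambiguous 1.1 to 1.13%).

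GENCODE M21 gave symbols and exon lengths for 47310 of 47729 identifiers. Genes kept by filterByExpr were scaled by TMM and tested two-sided with edgeR 4.0.16 (quasi-likelihood, R 4.3.3; group as the only term). CPM uses unscaled totals, so ratios of mean CPM differ from the fitted fold changes. Alternatives were DESeq2 1.42.0, limma 3.58.1, other scalings and filters, unstranded counts, pool sex and leaving out each library; the lone sample of an arm is then assumed to vary like the other group. 1 member and 1 marker are not reported here. Members that passed or averaged at least 1 CPM are named with values, and tested protein-coding neighbours for those changed at least 2-fold. Members, lists and rules were chosen with earlier results of these data known. Replicate numbers follow record order and pair nothing. Whether pools were independent is not stated, so p-values measure only the spread between them.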

Additional observations from a re-analysis of the deposited data

How the results depend on the processing

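Of 299 values under alternatives, for 23 members averaging at least 1 CPM, 268 kept direction and side of the threshold. Of the 7 called members all were kept with RLE, upper-quartile or no scaling factors, a mean CPM filter, no filter, DESeq2 and unstranded counts, and 6 with limma-voom, which left 1 higher (Slc2a1). DESeq2 added Slc2a9 and Slc2a2, and no filter those and Slc16a7, so that 4 members were higher in each. All-gene calls went from 2163 to 3657 without a filter and 3254 with DESeq2. With the male fraction as a covariate 0 members were higher, 0 lower, 0 called in all, 0 of the glucose and lactate list passed, and 11 genes passed over all. With 1 library left out, members higher ran from 0 to 5, lower from 1 to 6 and called from 1 to 10, all genes from 25 to 5101, and the list from 0 to 26. The members' median of -0.02 was -0.072 with upper-quartile factors, -0.088 with library size only, -0.063 with the mean CPM filter, and ran from -0.0010 to 0.17 with a library left out. Among those 23, signs turned in 4 that had not passed: Slc16a3 (-0.024) and Slc16a12 (0.012) with the male fraction, and with 1 library left out Slc2a13 (-0.18 to 0.078, positive without normoxia replicate 2) and Slc16a6 (-0.13 to 0.56, negative without Sugen-hypoxia replicate 2). The models with the male fraction or with a library left out have fewer residual degrees of freedom, and the cause of these changes was not tested.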
